A study of Homo sapiens with 47 samples.

Results

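The first step of the differentiation of human embryonic stem cells (hESCs) towards neuromesodermal progenitor-like (NMP-like) cells was described from the whole-culture samples labelled t0 and 36h, 6 of the 47 samples of the series. All cells were of a single established line, WA09 (H9). The t0 samples were undifferentiated hESCs kept feeder-free on Matrigel in mTESR1, and the paper places t0 a day after seeding. Thus the groups also differed in time since seeding. The 36h samples had spent 36 h in N2B27 without vitamin A. That medium held CHIR-99021 (an inhibitor of GSK3, which activates canonical WNT signalling) and rhFGF2. It also held AGN193109 (an inverse agonist of retinoic acid receptors) and Y-27632 (a kinase inhibitor used to keep dissociated stem cells alive). Each group held 3 samples, 1 from each of 3 differentiations, called r1, r2 and r3 here, and every t0 sample was paired with the 36 h sample of its own number. Total counts were 43326535, 44499847 and 57041480 at t0 and 34469125, 39908157 and 54361945 at 36 h, for r1, r2 and r3 in that order. In bulk RNA, fewer cells of a type and less RNA per cell cannot be told apart, so every value below is a mean over a culture.

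NMPs are bipotent cells of the caudal epiblast that give rise to spinal cord and to the presomitic mesoderm from which somites form. They are known for carrying the mesodermal T-box factor *TBXT* together with the neural factor *SOX2*, and for expressing CDX factors under WNT and FGF signals. Presomitic mesoderm is marked by *TBX6* and *MSGN1*, and loss of the epithelial cadherin *CDH1* accompanies passage through the primitive streak.

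Of 18261 genes tested, 393 rose and 685 fell between t0 and 36 h, that is, 2.15% and 3.75% of the genes tested. A gene was called when its edgeR quasi-likelihood p, Benjamini-Hochberg adjusted over all genes tested, was under 0.05, its fold change was at least 2 and its normalized counts averaged at least 100. With 3 differentiations as blocks, such a test favours genes that moved the same way in each, as all 1078 called genes did. The p-values measure the spread between these 3 differentiations of 1 line. Among called genes, 107 rose and 118 fell at least 8-fold, and the median log2 fold changes were 1.93 and -1.75. The summed level of the genes that rose went from 4689.9, 4802 and 4587 TPM (transcript abundance scaled for gene length and depth) at t0 to 20822, 25746 and 29213 TPM at 36 h in r1, r2 and r3. That of the genes that fell went from 31913, 30180.3 and 30844 TPM to 12355, 9279 and 7931 TPM. Both sums differed most in r3 and least in r1. The counts of called genes depended on r2: without it, 11 genes were called higher and 2 lower. The fold changes depended on it less. Without r2, 374 of the 393 genes that rose and 661 of the 685 that fell were still at least 2-fold apart in the same direction, and their median log2 fold changes were 1.91 and -1.74. *EVX1*, *HOTAIRM1*, *CDX1*, *WNT8A*, *FST*, *SP5*, *SP8*, *GBX2*, *ZEB2*, *CUZD1* and *AP1M2* kept their calls, and every other call described below was lost when r2 was left out.

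The labels were compared with marker genes. Of 12 NMP markers, all 12 were tested, 10 rose and 1 (*CYP26A1*) fell, with a median log2 fold change of 8.25 beside -0.00 for all genes tested. When at least 10 counts were required in every sample, which drops members near 0 at t0, only 4 of the 12 were left, 2 with positive and 2 with negative log2 fold changes, and their median was -0.13. The summed level of all 12 NMP markers was 215, 219 and 230.3 TPM at t0 and 739.8, 1398 and 1987 TPM at 36 h in r1, r2 and r3. The marker that was not called was *SOX2*, at 11398, 11604 and 12402 normalized counts at t0 and 13112, 1446 and 269.5 at 36 h. Thus *SOX2* in r1 was above every t0 sample, whereas in r3 it was below all others, and its adjusted p was 0.20 by edgeR with a log2 fold change of -2.81 that was negative in r2 and r3 and positive in r1, and it was called lower without r1. Of 10 hESC markers, all 10 were tested, 4 fell and the other 6 were not called (those that fell were *PRDM14*, *DNMT3B*, *TDGF1* and *EPCAM*), with a median of -1.28 and a summed level of 5709, 5175 and 5004 TPM at t0 and 3969, 3056 and 1814 TPM at 36 h. *DNMT3B* lost its call without r1 and without r3, and *CYP26A1* and *EPCAM* without r1.

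Genes of the caudal epiblast and of the primitive streak were among the largest increases. *CDX1*, a homeobox factor that patterns the trunk, had 0, 2.06 and 3.91 normalized counts at t0 and 1693, 5277 and 8374 at 36 h in r1, r2 and r3. *TBXT* had 16.4, 8.24 and 5.47 at t0 and 3321, 28139.7 and 27887 at 36 h. *WNT8A*, a WNT ligand of the streak, had 3.08, 2.06 and 11.7 at t0 and 2051, 3893 and 12247 at 36 h. The groups did not overlap for any of them, and r1 was the lowest 36 h sample for these genes. The log2 fold changes were 11.23 for *CDX1* (standard error 0.26, edgeR adjusted p = 0.00028), 10.70 for *TBXT* (standard error 0.89, adjusted p = 0.0073) and 10.04 for *WNT8A* (standard error 0.23, adjusted p = 0.00028), each positive in all 3 differentiations. Standard errors throughout are the log2 fold change, without its sign, over the square root of the quasi-likelihood F statistic. For genes near 0 at t0, such as *CDX1* and *WNT8A*, they can fall below the counting error. *HOXB1*, an anterior HOX gene that is activated early, stood at 2.05, 1.03 and 4.69 at t0 and 264, 828 and 8435 at 36 h, a log2 fold change of 10.11. *EVX1*, an even-skipped homeobox factor of the posterior streak, had 3 counts in all over the 3 t0 samples and 224, 6942 and 8130.1 normalized counts at 36 h, a ratio of 5956 with a 95% counting interval of 2038 to 28884. Intervals of this kind pool the counts of the 3 differentiations, so they cover counting error only and not the spread between differentiations. Even as counting error they are uncertain, since reads without molecular identifiers are not independent molecules.

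**Figure D1:**
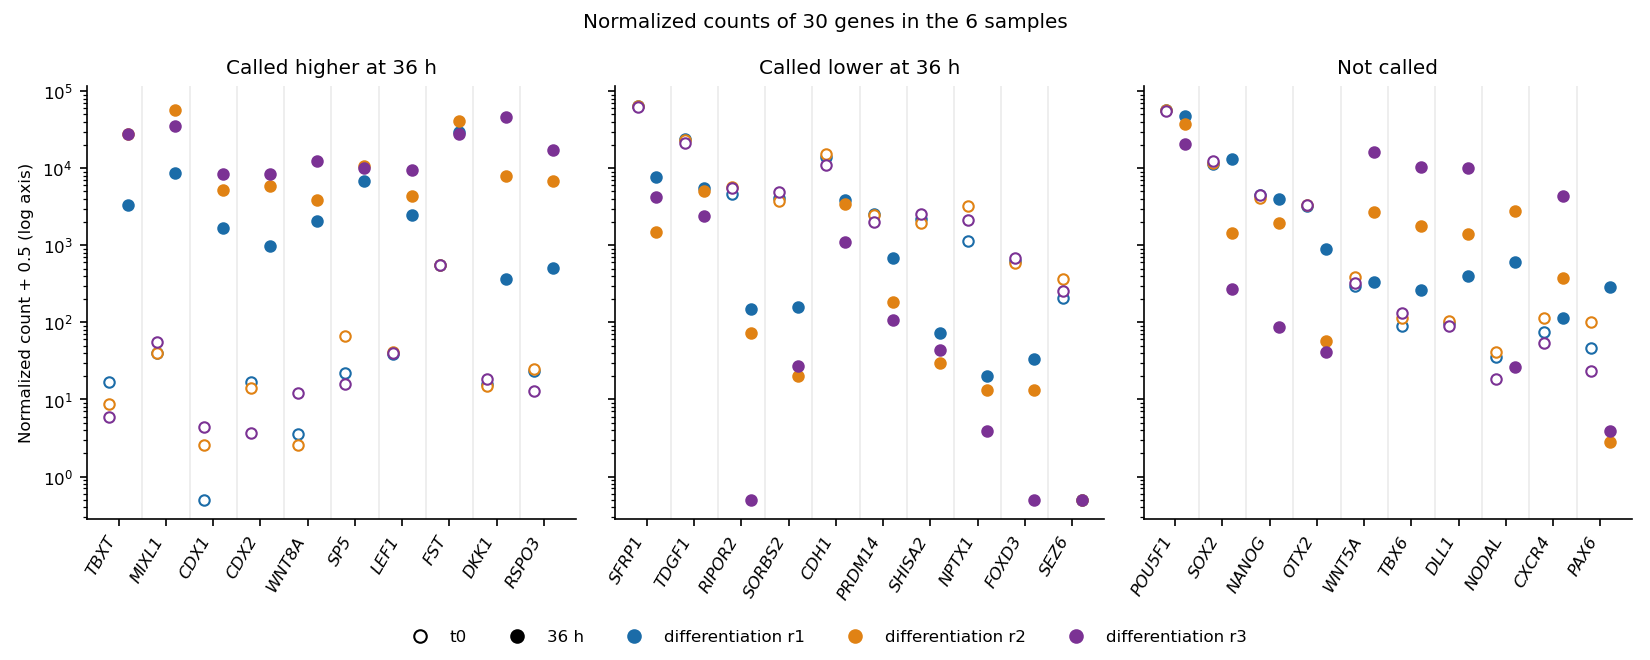
Normalized counts plus 0.5 on a log axis for 30 genes, 10 called higher, 10 called lower and 10 not called, with open points for t0 and filled points for 36 h and a colour for each differentiation. The 36 h points of *FST* lie together between 27967 and 41414, whereas those of *DKK1* run from 363 to 46455, and *SOX2* in r1 (13112) stays with the t0 points.

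Of the 24 genes listed for caudal epiblast and NMP, 23 were tested, 16 rose and 1 fell, and the median log2 fold change was 5.42 beside -0.00 for all genes tested, or 2.56 with at least 10 counts in every sample. All 10 NMP markers that rose are also on this list, so the 2 lists are not separate evidence. The members that rose most evenly were *SP8*, a zinc-finger factor, at 3.33 (log2 ratios of 3.46, 3.26 and 3.28 in r1, r2 and r3) and *GBX2*, a homeobox factor of the hindbrain border, at 5.25 (5.14, 5.40 and 5.17). *TUBB2B*, a beta-tubulin, was the most abundant member, with a log2 fold change of 2.22. *CDX2* had 16.4, 13.4 and 3.13 normalized counts at t0 and 985, 5826 and 8442 at 36 h, and *WNT3A* had 15.4, 8.24 and 8.60 at t0 and 211, 775 and 2571 at 36 h. For both, r1 was again the lowest 36 h sample and the groups did not overlap. *NKX1-2*, a homeobox factor of the preneural tube, was measured at 1348, 1495 and 1209.6 before and 9648, 15398 and 3429 after induction, so that r3 was the lowest, and its call (log2 fold change 2.58) was lost without r1. The 1 member that fell was *CYP26A1*, which degrades retinoic acid, at 572, 979.9 and 765 at t0 and 26.0, 179 and 16.0 at 36 h, and that call was also lost without r1.

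Of 24 genes listed for primitive streak and mesendoderm, 20 were tested, 9 rose and 11 were not called, with a median of 3.95, which was 6.03 without r1 and 2.57 with at least 10 counts in every sample. *APLNR*, the apelin receptor of early mesoderm, had 35.9, 21.6 and 49.3 normalized counts at t0 and 2346, 14359.5 and 78398 at 36 h. *MESP1*, a factor of nascent mesoderm, had 0, 6.18 and 5.47 at t0 and 9.92, 163 and 1407 at 36 h. In both genes r3 was the highest, and the 36 h sample of r1 lay above every t0 sample. For *MESP1* that margin was only a few counts (9.92 beside 6.18 and 5.47), and without r3 the gene did not pass the filter for testing. *EOMES*, a T-box factor of the anterior streak, gave another order, with 10.3, 5.15 and 13.3 at t0 and 1251, 3500.3 and 228 at 36 h, and its call (log2 fold change 6.68) was lost without r1, at a log2 fold change of 6.60. *GATA4*, a factor of endoderm and cardiac mesoderm, had 3 counts over the t0 samples and 38.4, 385 and 779 normalized counts at 36 h, a ratio of 485 with a 95% counting interval of 166 to 2356, and its call was lost without r3. *SOX17*, the defining endoderm factor, was at 0 in all 6 samples.

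Several of the largest increases were transcripts outside protein-coding genes. *LINC01124*, which lies beside *SP5* at chr2:170712451-170714567 (GRCh38), had 1 count over the t0 samples and 257, 358 and 402 normalized counts at 36 h, a ratio of 1122 (95% counting interval 201 to 44356). *HOTAIRM1*, annotated as antisense at chr7:27095647-27100265, had 2 counts over the t0 samples and 860.2, 2224 and 4294 normalized counts at 36 h, a ratio of 4357 (1206 to 35981). *EVX1-AS*, which overlaps the start of *EVX1* on the other strand, had 1 count over the t0 samples and 37.2, 473 and 1149.6 normalized counts at 36 h, a ratio of 2038 (365 to 80555), and the neighbouring lincRNA *AC004080.1* had 1 count and then 53.3, 874 and 2339, a ratio of 4041 (725 to 159640). All of these were lowest in r1, as *EVX1* itself was. Whether the counting separated strands is not given in the sources used here, so counts of antisense transcripts that overlap another gene are uncertain. By annotation, 360 of the 393 genes that rose were protein-coding, 11 were lincRNAs and 9 antisense.

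WNT targets and feedback genes were followed as a group because the 36 h medium held a GSK3 inhibitor. All 31 listed genes were tested, 15 rose and 3 fell, with a median log2 fold change of 1.32 beside -0.00 for all genes tested. That median was 1.74 without r1 and 0.98 with at least 10 counts in every sample. The lists share members, and *SP5*, *CDX1* and *TBXT*, among those that rose here, were also counted as NMP markers. *DKK1*, a secreted inhibitor that binds LRP co-receptors, had 15.4, 14.4 and 18.0 normalized counts at t0 and 363, 7858 and 46455 at 36 h. *SP5*, a zinc-finger repressor that is a direct WNT target in many cells, had 21.5, 67.0 and 15.6 at t0 and 6838, 10760.3 and 10120.2 at 36 h. Thus *SP5* reached a similar level in every differentiation, with log2 ratios of 8.28, 7.32 and 9.29, whereas those of *DKK1* were 4.52, 9.04 and 11.30. The promoters of both genes are shown because they were the 2 of 19 matched list members with a match to CTTTGAT or CTTTGAA, the core letters bound by TCF and LEF factors, searched on both strands (ATCAAAG and TTCAAAG on the other). Windows run from 250 bases before to 50 after the start site on GRCh38.p14 (RefSeq), plus strand, at chr2:170715087-170715386 for *SP5* and chr10:52314031-52314330 for *DKK1*, and capitals mark the matches.
SP5: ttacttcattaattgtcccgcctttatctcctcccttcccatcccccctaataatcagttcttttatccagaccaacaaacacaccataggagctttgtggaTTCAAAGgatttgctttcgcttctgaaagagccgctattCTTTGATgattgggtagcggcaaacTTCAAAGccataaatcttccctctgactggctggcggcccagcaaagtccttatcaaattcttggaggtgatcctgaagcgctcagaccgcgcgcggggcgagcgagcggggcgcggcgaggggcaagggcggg
DKK1: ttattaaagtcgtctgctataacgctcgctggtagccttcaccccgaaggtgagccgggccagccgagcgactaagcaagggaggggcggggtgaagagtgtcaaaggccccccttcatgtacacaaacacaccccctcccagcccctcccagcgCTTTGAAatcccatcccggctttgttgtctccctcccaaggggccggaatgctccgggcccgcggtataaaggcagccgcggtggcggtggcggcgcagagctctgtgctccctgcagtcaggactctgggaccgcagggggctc
The *SP5* window held 3 matches, beginning at -148, -109 and -84 from the start site, and the *DKK1* window held 1, at -95. Such letters occurred in 6.98% of all 27305 promoters in the table, in 4.04% of those of tested genes, in 8.30% of those of genes that rose and in 3.60% of those of genes that fell. A match is a description of the sequence and not a binding site.

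**Figure D2:**
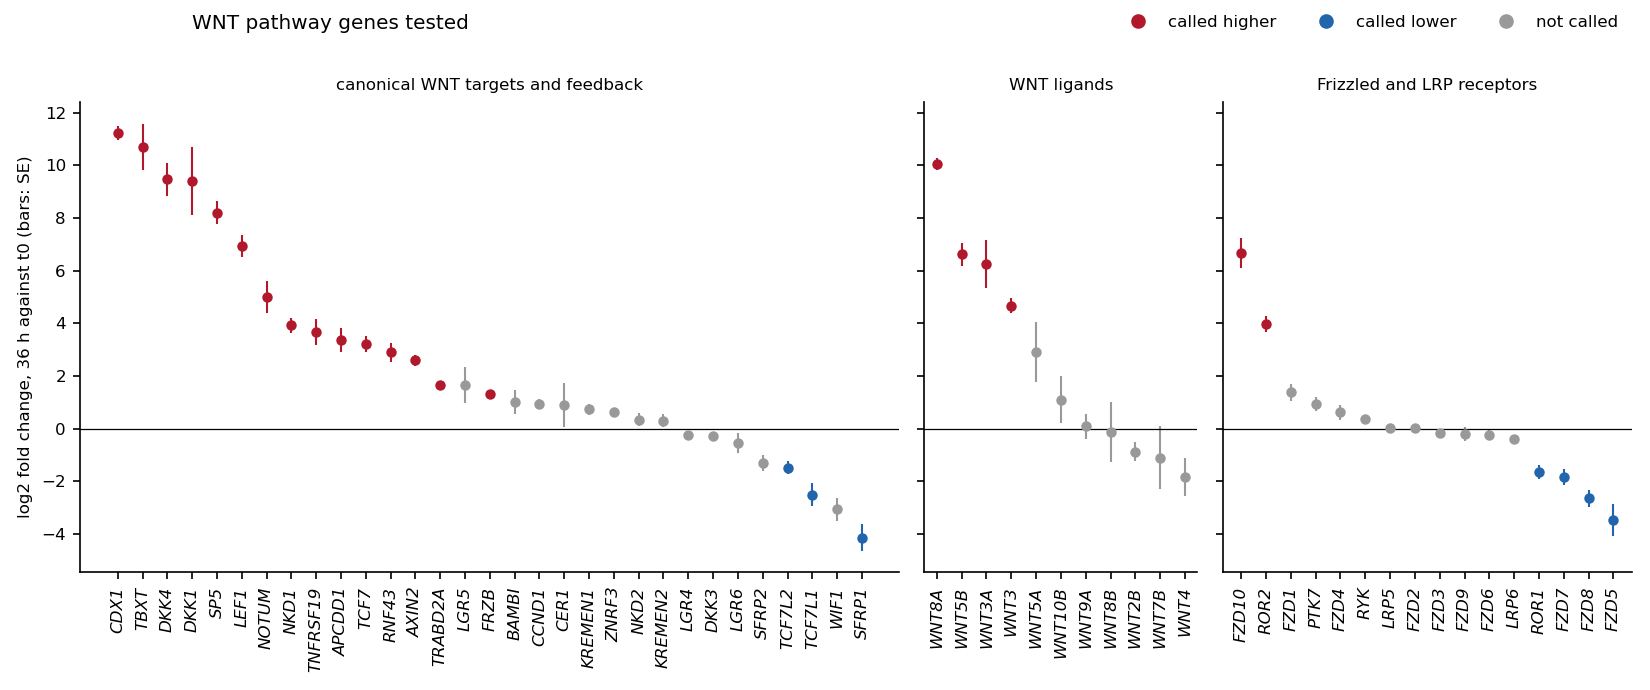
Log2 fold change of 36 h against t0, with its standard error as a bar, for the tested WNT targets and feedback genes, WNT ligands and Frizzled, LRP, ROR and related receptors, coloured by call. Values run from 11.23 for *CDX1* to -4.13 for *SFRP1* among the targets, and the fitted value of *DKK4* is no bound, since it had 1 count over the t0 samples.

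Among the other WNT targets, *LEF1*, the factor that carries the beta-catenin signal to DNA, rose from 37.9, 41.2 and 39.1 to 2472, 4303 and 9553 normalized counts, a log2 fold change of 6.93 (standard error 0.42, edgeR adjusted p = 0.0047, in all 3 differentiations). *AXIN2*, a scaffold of the destruction complex, rose by 2.60 on the log2 scale and *NKD1*, a feedback inhibitor, by 3.93. Members of the TCF family moved apart. *TCF7* had a log2 fold change of 3.23, whereas *TCF7L1*, which acts mainly as a repressor, had 8713, 9626 and 8337 at t0 and 3790.4, 1014 and 1045 at 36 h, a log2 fold change of -2.50, and that of *TCF7L2* was -1.47. *SFRP1*, a secreted WNT inhibitor, fell from 64854, 64546 and 62933 to 7670.1, 1476 and 4209 (log2 fold change -4.13). The calls of *APCDD1* and *NOTUM* were lost without r1 and without r3, respectively.

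Of 19 WNT ligands, 11 were tested, 4 rose and 7 were not called, and their summed level went from 8.32, 8.14 and 8.71 TPM to 172, 355 and 856 TPM. The 4 were *WNT3*, *WNT3A*, *WNT5B* and *WNT8A*, of which *WNT5B* was the most abundant of the list in TPM, and had 4177, 9861 and 18105 normalized counts at 36 h. The median over the ligands tested was 1.10, or 2.16 without r1, 1.97 without r2 and 2.89 with at least 10 counts in every sample. Within differentiations the median log2 ratio of the ligands was 2.29, 0.23 and -0.14 in r1, r2 and r3. Thus it was lowest in r3, where the summed level at 36 h was highest. Of 16 Frizzled, LRP, ROR and related WNT receptors, all 16 were tested, 2 rose and 4 fell, with a median of -0.07. *FZD10* had 24.6, 29.9 and 29.7 at t0 and 837, 2957 and 7244 at 36 h, whereas *FZD5* had 3724, 4006 and 3239 at t0 and 1023, 319.9 and 104 at 36 h. The tyrosine kinase receptors *ROR2* (log2 fold change 3.97) and *ROR1* (-1.63) moved in opposite directions, each in all 3 differentiations.

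FGF ligands rose in part. Of 22 ligands, 18 were tested, 5 rose (*FGF4*, *FGF8*, *FGF17*, *FGF18* and *FGF19*) and 13 were not called, with a median of 0.23, or -0.20 without r1 and 0.87 without r3. *FGF8* had 12.3, 9.27 and 1.56 normalized counts at t0 and 264, 176 and 661 at 36 h, and *FGF4* had 30.8, 16.5 and 19.5 at t0 and 405, 1907 and 838 at 36 h. The groups did not overlap for either gene. *FGF18* lost its call without r1. Of 24 FGF receptors and ERK feedback genes, 23 were tested, 2 rose and 2 fell, with a median of -0.29. *DUSP6*, the phosphatase that dampens ERK, fell from 16041, 16207 and 17139 to 3794, 8704 and 5563 (log2 fold change -1.53), and *PHLDA1* fell by 2.03 on the log2 scale, while *SPRED2* and *IL17RD*, inhibitors of the same pathway, rose by 1.78 and 1.59 on that scale.

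Among Nodal pathway genes, 25 of 27 were tested, 4 rose and 1 fell, with a median of -0.00. *FST*, which binds and blocks activins, rose from 558, 559.5 and 548 to 29678, 41414 and 27967 normalized counts. *TDGF1*, the Nodal co-receptor, fell from 24094, 23354 and 21338 to 5470.0, 5042 and 2369 (log2 fold change -2.50). *PCSK6* was called higher, but not without r1 or without r3. The genes *NODAL*, *LEFTY1* and *LEFTY2* were picked after their values were seen, and none was called by edgeR with all 3 differentiations. *NODAL* had 34.9, 41.2 and 18.0 at t0 and 599, 2805 and 26.0 at 36 h, and its feedback inhibitor *LEFTY2* had 149, 150.4 and 97.7 and then 35.9, 17.4 and 0. Thus r3 overlapped the t0 range for *NODAL* while r1 and r2 lay above it. *NODAL* was called higher without r3, and also by DESeq2, by limma-voom and with no count filter.

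Of 20 retinoic acid genes, 17 were tested, 3 rose and 3 fell, with a median of 0.11. The binding protein *CRABP2* and the retinol importer *STRA6* were among those that rose, *CRABP2* from 2387, 3478 and 2266 to 12021, 17406 and 18579 normalized counts. Its relative *CRABP1* had 6285, 6918 and 6228 at t0 and 2246, 1259 and 911 at 36 h, a log2 fold change of -2.24, and *DHRS3*, which returns retinal to retinol, fell by 2.33 on the log2 scale, a call lost without r1. Of 26 BMP pathway genes, 22 were tested, 3 rose and 19 were not called, with a median of 0.91. *BMP4* had 70.7, 77.3 and 57.1 at t0 and 196, 316 and 476 at 36 h, and the BMP-responsive homeobox gene *MSX1* had 19.5, 23.7 and 13.3 and then 209, 2124 and 7696, so that the 36 h samples of *MSX1* spanned a far wider range than those of *BMP4*. *HES7*, an oscillator of the segmentation clock, was the 1 gene called by edgeR of 21 Notch pathway genes tested out of 23, at 12.3, 16.5 and 13.3 before and 120.2, 1117 and 5062 after, and the median of that list was 0.07, or 0.25 without r2. DESeq2 called 3 genes of the list higher and 2 lower, and limma-voom 3 higher.

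Genes of primed pluripotency fell in part. All 36 listed genes were tested, 2 rose and 11 fell, with a median log2 fold change of -1.24, and within differentiations the median log2 ratio was -0.59, -0.94 and -2.05 in r1, r2 and r3. Their summed level was 9176, 8622 and 8348 TPM at t0 and 6766, 5001 and 3118 TPM at 36 h, with no overlap of the groups. *PRDM14*, a repressor that guards the pluripotent state, had 2531, 2486 and 2021 normalized counts at t0 and 694, 183 and 106 at 36 h, a log2 fold change of -3.29 (standard error 0.51, edgeR adjusted p = 0.023, in all 3 differentiations). *USP44*, a deubiquitinase abundant in hESCs, fell by 2.47 and *JARID2*, a cofactor of Polycomb complex PRC2, by 1.58 on the log2 scale. *ZIC2*, a zinc-finger factor, had a log2 fold change of -1.28. *LIN28A*, an RNA-binding protein, gave one of the more even values without a call, with log2 ratios of -0.33, -0.35 and -0.40. The calls of *ZIC2* and *ZSCAN10* were lost without r3, and those of *EPHA1* and *GAL* without r1.

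*POU5F1* and *NANOG*, chosen after their values were seen, were not called and differed most in r3. *POU5F1* had 57892, 56526 and 55176 normalized counts at t0 and 48124, 37829.9 and 20945 at 36 h. *NANOG* had 4552, 4094 and 4499 at t0 and 3994, 1957 and 87.3 at 36 h. Every 36 h sample lay below every t0 sample for both genes, but the log2 ratios of *NANOG* ran from -0.19 in r1 to -5.68 in r3, and its edgeR adjusted p was 0.32 with a log2 fold change of -1.93, negative in all 3 differentiations. In r1, *POU5F1*, *NANOG* and *SOX2* all stayed within 2-fold of their own t0 sample.

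A gene was counted as lost when it was called lower and its 36 h sample held under 10% of the t0 sample in every differentiation. There were 41 such genes, 36 of them protein-coding. Of the 41, 8 belonged to any of the lists used here, beside 132 of all 1078 called genes. The summed level of the 41 lost genes was 919.8, 1050.4 and 888 TPM at t0 and 57.9, 40.5 and 17.6 TPM at 36 h. In the other direction, 62 genes that rose had a t0 sample under 10% of the 36 h sample in every differentiation. The lost gene with the highest mean normalized count at t0, which is not scaled for gene length, was *RIPOR2*, with 4701, 5633 and 5509 normalized counts at t0 and 148, 72.1 and 0 at 36 h. *SORBS2*, an adaptor of actin and cell adhesion sites, had 4125, 3802 and 4944 at t0 and 157, 19.8 and 26.9 at 36 h. Thus both genes kept their largest remainder in r1. The log2 fold changes were -6.62 for *RIPOR2* (standard error 1.08, edgeR adjusted p = 0.026) and -6.41 for *SORBS2* (standard error 0.69, adjusted p = 0.012), negative in all 3 differentiations. *SEZ6*, a membrane protein of neurons, had 208, 368 and 256 normalized counts at t0 and 0 in all 36 h samples, and was at least 262-fold lower against a floor of 3 counts over the 3 samples of the group.

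**Figure D3:**
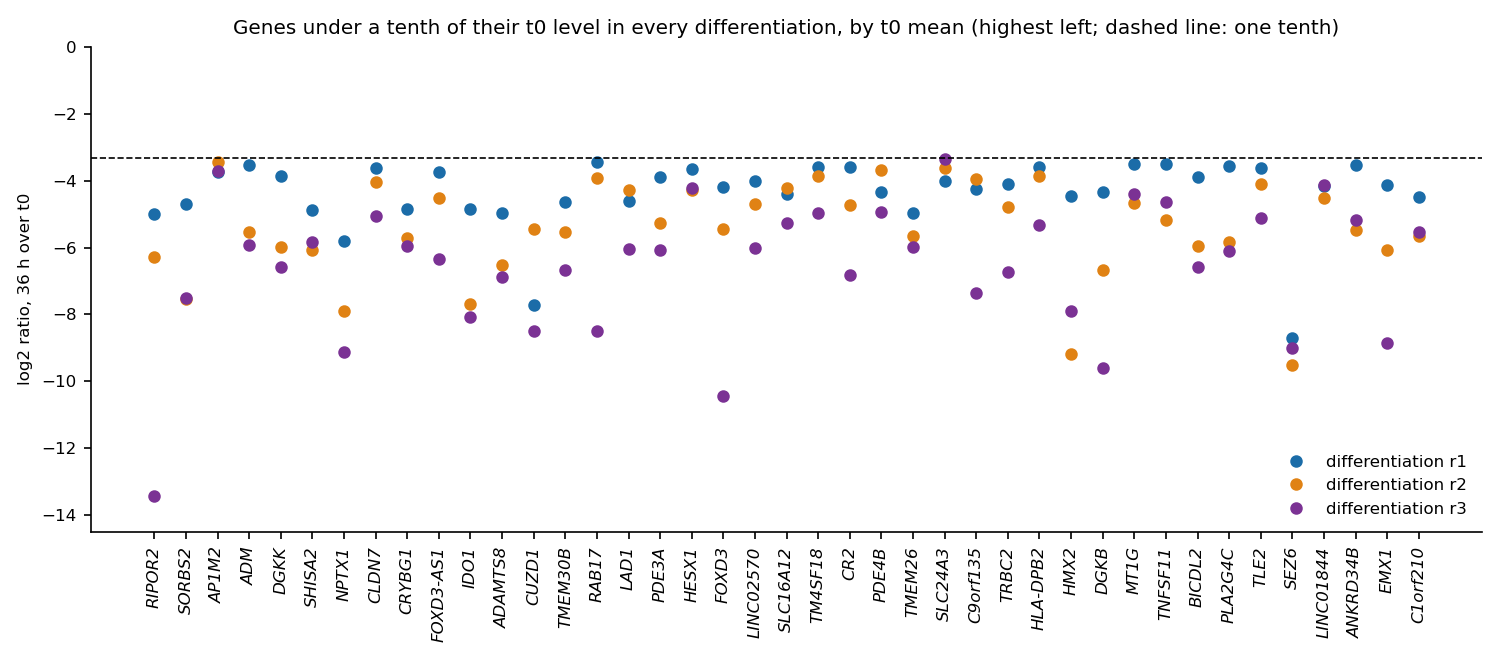
Log2 ratio of 36 h over t0 in each differentiation (1 colour each) for the 41 lost genes, ordered by t0 mean, with a dashed line at 10% of t0. *AP1M2* shows points close together at -3.75, -3.44 and -3.72, while *RIPOR2* runs from -4.99 in r1 to -13.43 in r3, where its count was 0 and the 0.5 added sets the value.

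Lost genes came from several functions. *IDO1*, which degrades tryptophan, had 1339.8, 1315 and 1281 normalized counts at t0 and 45.9, 5.82 and 4.20 at 36 h, with t0 samples that lay close together (SD 29.6, n = 3). *DGKK* and *DGKB*, both diacylglycerol kinases, had log2 fold changes of -5.39 and -6.21, and *ADAMTS8*, a secreted metalloprotease, of -6.07. *CUZD1* had 1158, 1043 and 1391 at t0 and 4.96, 23.3 and 3.36 at 36 h, so that here r2 held the most. Homeobox and forkhead factors among the lost genes were *HMX2*, *EMX1*, *HESX1* and *FOXD3*, the last a repressor known for its part in pluripotency and neural crest, at 625, 585 and 693 before and 33.5, 12.8 and 0 after. The call of *EMX1* was lost without r3. *FOXD3-AS1*, annotated across the start of *FOXD3* on the other strand, had 1814, 1893 and 1808 at t0 and 135, 81.4 and 21.8 at 36 h, a log2 fold change of -4.78 beside -5.76 for *FOXD3*, with the same uncertainty over strands as above. *CRYBG1* fell by 5.50 on the log2 scale and *AP1M2*, a sorting adaptor of epithelial cells, by 3.64, with log2 ratios of -3.75, -3.44 and -3.72.

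Of 30 genes listed for cadherins and epithelial identity, all 30 were tested, 2 rose and 13 fell, with a median log2 fold change of -1.42 beside -0.00 for all genes tested. The summed level of the list was 2627, 2661 and 2284 TPM at t0 and 1770.3, 2628 and 1879 TPM at 36 h. The groups overlapped for this sum, and r2 hardly differed. *CDH1*, E-cadherin, had 14049, 15510.1 and 11097 normalized counts at t0 and 3849.9, 3463 and 1118 at 36 h, and *CDH2*, N-cadherin, had 3697, 3166 and 4111 at t0 and 12246, 25180.3 and 32014 at 36 h. The groups did not overlap for either cadherin. The log2 fold changes were -2.44 for *CDH1* (standard error 0.30, edgeR adjusted p = 0.015) and 2.57 for *CDH2* (standard error 0.29, adjusted p = 0.013), each in all 3 differentiations. The tight-junction claudins *CLDN3*, *CLDN4* and *CLDN7* fell by 4.67, 3.54 and 4.22 on the log2 scale, whereas *CLDN6*, the most abundant member of the list in TPM, was at -0.62 and was not called. The epithelial regulators *GRHL2* and *ESRP1* fell by 2.83 and 2.24 on that scale. The calls of *EPCAM* and *MARVELD3* were lost without r1.

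Of 15 mesenchymal regulators, 13 were tested, 7 rose and 6 were not called, with a median of 2.02. *ZEB2*, a repressor of *CDH1*, had 182, 138 and 235 normalized counts at t0 and 3251, 2769 and 4970.3 at 36 h, a log2 fold change of 4.29 (standard error 0.13, edgeR adjusted p = 0.00056, in all 3 differentiations). On the log2 scale *ZEB1* rose by 2.34, *VIM* by 2.06, *ITGA5* by 2.03 and *FN1*, fibronectin, by 1.53. *SNAI1* and *SNAI2*, picked after their values were seen, were not called by edgeR with the replicate block. *SNAI1* had 308, 359 and 282 at t0 and 317, 1245 and 5399 at 36 h, so that r1 lay within the t0 range while r3 was far above it. *SNAI2* had 37.9, 67.0 and 46.9 and then 117, 646 and 3486, and was called higher by DESeq2, by limma-voom, without the block, with no count filter, without r1 and without r3. The call of *PRRX1* was lost without r1 and without r3. Of 18 ephrins and EPH receptors, 17 were tested, 4 rose (*EPHA2*, *EPHB3*, *EFNB1* and *EFNB2*) and 3 fell (*EPHA1*, *EPHB1* and *EPHB6*), with a median of 0.12, and *EPHA1*, *EPHA2*, *EPHB3* and *EFNB2* lost their calls without r1.

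All 33 genes of cholesterol and fatty acid synthesis were tested and none was called by edgeR, DESeq2 or limma-voom, while by edgeR 3 higher and 5 lower had an unadjusted p under 0.05, with a median of -0.15. *SCD*, a fatty acid desaturase and the most abundant member in TPM, had 97767, 115320.3 and 80686 normalized counts at t0 and 56822, 84545 and 77661 at 36 h, so that the groups overlapped and r1 was lowest at 36 h. All 24 glycolysis genes were tested, 1 rose (*PDK1*) and 2 fell (*HK2* and *PFKP*), with a median of -0.37, or -0.16 without r2. *HK2*, a hexokinase, had 7499, 16961 and 7034 at t0 and 3747, 3766 and 3805 at 36 h. Here the t0 sample of r2 stood apart while the 36 h samples nearly coincided. The same t0 sample held the highest summed glycolysis level, 21964 TPM beside 16129.6 and 14459 TPM in r1 and r3, the highest count of *ADM*, a peptide hormone induced by low oxygen (1693, 4064 and 1719), and the highest counts of the metallothioneins *MT1E* (114, 414 and 66.5) and *MT1G* (174, 686 and 117). Without r2 the log2 fold change of *HK2* was -0.95 (-1.35 with all 3 differentiations), that of *ADM* -4.67 (-4.97), that of *MT1E* -3.07 (-3.49) and that of *MT1G* -4.00 (-4.25). *HK2* lost its call without r1, and *PDK1* without r1 and without r3.

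Of 18 genes of metallothioneins and metal transport, 15 were tested, 1 rose and 3 fell, with a median of -0.69. *MT1G* fell to 14.9, 26.8 and 5.04 normalized counts and *MT1E* to 17.4, 22.1 and 5.88, and counts of such near-identical genes are uncertain. *HMOX1*, heme oxygenase, fell from 1045, 844 and 986 to 290.0, 276 and 248, whereas the zinc and manganese transporter *SLC39A8* rose by 2.69 on the log2 scale. All 22 ATF4 and amino acid stress genes were tested, 1 rose (*SLC7A11*, a call lost without r1) and 1 fell (*SLC7A3*), with a median of 0.20, or 0.01 without r1 and 0.57 without r2. All 18 p53 targets were tested, 2 rose (*CDKN1A* and *BTG2*), with a median of 0.32, or 0.22, 0.15 and 0.73 without r1, r2 and r3, and *CDKN1A*, a cell-cycle inhibitor, had 597, 875 and 550.5 at t0 and 2667, 2461 and 1107 at 36 h. Of 30 cell cycle genes, 27 were tested, 2 rose (*CDK6* and *CDKN1A*), with a median of 0.14, and *CDK6* lost its call without r3. Of 10 genes of the MYC network, all 10 were tested and *MYCN* alone was called, lower, with a median of -0.16 for the list, and it lost its call without r1. All 22 YAP and SRF targets were tested, 2 rose (*AMOTL2* and *ACTA2*) and 2 fell (*CYR61* and *TPM1*), with a median of -0.14. Of 18 DNA methylation enzymes, 17 were tested and *DNMT3B* alone was called, lower, with a median of 0.14, or 0.02 without r2.

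Called genes did not move to the same extent in the 3 differentiations. Among the genes that rose, the log2 ratio was smallest in r1 for 185 of 393 (47.1%) and largest in r3 for 189 (48.1%). Among the genes that fell, the log2 ratio taken without its sign was smallest in r1 for 483 of 685 (70.5%) and largest in r3 for 421 (61.5%). The median log2 ratio of the genes that fell was -1.40, -1.84 and -2.06 in r1, r2 and r3, and that of the genes that rose was 1.87, 2.08 and 2.01. Over the 13362 genes averaging at least 100 normalized counts, 57, 145 and 230 genes held under 10% of their t0 level in r1, r2 and r3, and 90, 112 and 157 stood at over 10-fold of it. The root-mean-square log2 distance from t0 to 36 h within a differentiation was 0.82, 1.02 and 1.20, and between 36 h samples it was 0.59 for r1 and r2, 0.63 for r2 and r3 and 0.80 for r1 and r3, beside 0.24 to 0.31 between t0 samples. The median SD of log2 values over 3 samples was 0.095 at t0 and 0.207 at 36 h, and 80.7% of genes had the larger SD at 36 h. Across genes, which are not independent replicates, log2 ratios correlated at 0.75 between r1 and r2, 0.70 between r1 and r3 and 0.83 between r2 and r3. With an adjusted p under 0.01 for the call, the share of called genes whose log2 ratio, without its sign, was smallest in r1 was 53.6% in place of 62.0%.

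**Figure D4:**
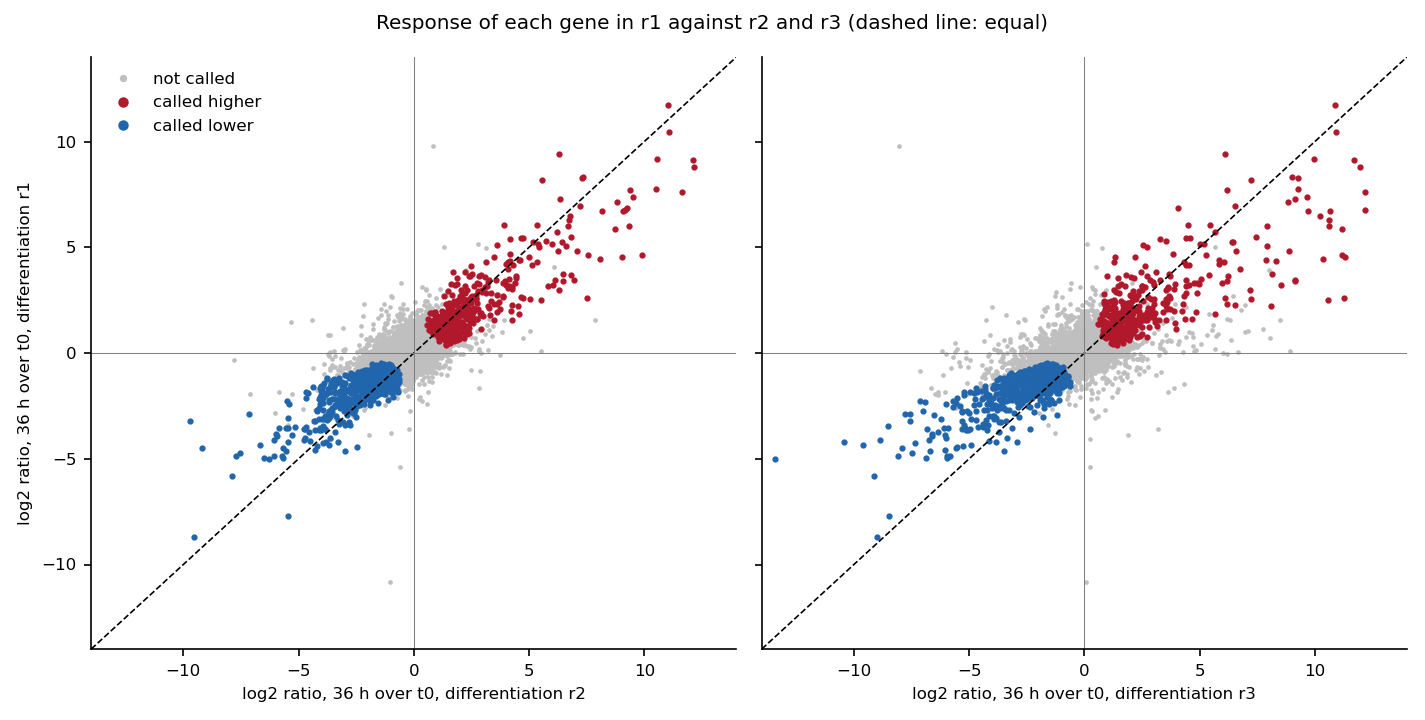
Log2 ratio of 36 h over t0 in r1 (vertical axis) against that in r2 and in r3 (horizontal axes) for genes averaging at least 100 normalized counts, coloured by call, with a dashed line where both are equal. Called lower genes lie mostly above the line, and for 483 of 685 the log2 ratio, taken without its sign, was smallest in r1.

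Among 1051 called genes with at least 100 normalized counts in the higher group of every differentiation, the range of the 3 log2 ratios had a median of 0.98, and it was at least 1 for 513 genes and at least 3 for 50. The widest ranges belonged to *RIPOR2* (8.44), *DKK1* (6.78), *FOXD3* (6.23), *RSPO3* (5.90) and *MSX1* (5.73). *RSPO3*, a secreted enhancer of WNT signalling, had 22.6, 24.7 and 12.5 normalized counts at t0 and 511, 6881 and 17268 at 36 h. *RIPOR2* and *FOXD3* had 0 counts at 36 h in r3, so that their ratio in r3, their range and their rank rest on the 0.5 added. In all 5 genes the log2 ratio, taken without its sign, was smallest in r1 and largest in r3. The narrowest ranges belonged to *SLC44A1*, a choline transporter, with log2 ratios of -1.05, -1.07 and -1.05, and to *CAMK2N2*, *PNMA3*, *SORL1* and *TRIM38*. *SORL1*, a sorting receptor, had 9089, 8596 and 7676 at t0 and 3014, 2939.6 and 2630.0 at 36 h. The 5 narrowest were all genes that fell, and *CAMK2N2* and *PNMA3* lost their calls without r1 and without r3, at log2 fold changes that hardly differed (-1.20 and -1.24 beside -1.23 for *CAMK2N2*, and -1.14 and -1.17 beside -1.16 for *PNMA3*).

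Within differentiations the median log2 ratio of the primitive streak list was 3.66, 3.87 and 4.30 in r1, r2 and r3, and that of the caudal epiblast and NMP list was 4.37, 6.21 and 5.67. The NMP markers gave 6.18, 7.04 and 9.63, and the summed level of the primitive streak list at 36 h was 481, 2276 and 2711 TPM. The presomitic mesoderm list gave 1.55, 2.76 and 4.65, and its summed level went from 48.0, 56.2 and 54.1 TPM to 99.9, 474 and 1979.8 TPM. Of its 20 genes, 13 were tested, 4 rose and 1 (*TCF15*) fell, with a median of 3.21, or 4.15 without r1 and 2.18 without r3. *FOXC1* and *TCF15* lost their calls without r3. DESeq2 and limma-voom each called 7 genes of the list higher. *TBX6*, chosen after its values were seen, had 90.2, 115 and 132 normalized counts at t0 and 265, 1772 and 10483 at 36 h. It was not called by edgeR with the replicate block, but was called higher without that block, by DESeq2, by limma-voom, with no count filter, without r1 and without r3. *MSGN1*, chosen in the same way, was at 0 in all t0 samples and at 7.44, 1384 and 5733 at 36 h, and did not pass the filter for testing. *CDH11*, the mesenchymal cadherin, was the most abundant gene of the list in TPM and had 923, 906 and 871 at t0 and 2800.1, 6139 and 21947 at 36 h. For *TBX6*, *MSGN1* and *CDH11*, r1 was lowest and r3 highest at 36 h.

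**Figure D5:**
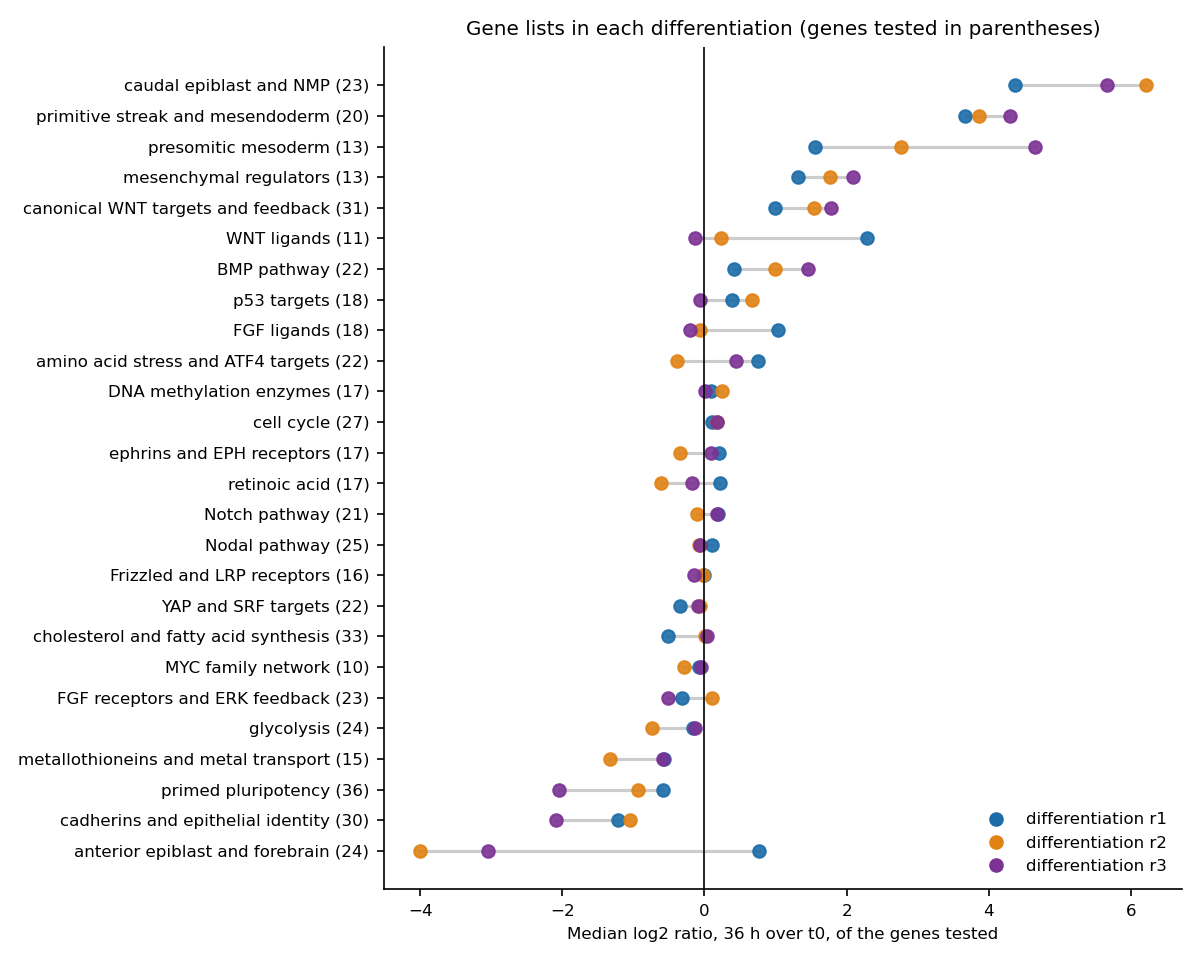
Median log2 ratio of 36 h over t0 in each differentiation (1 colour each) for lists with at least 10 genes tested, joined by a line from the lowest to the highest. The anterior epiblast and forebrain list runs from -4.00 in r2 to 0.77 in r1, and the presomitic mesoderm list from 1.55 in r1 to 4.65 in r3.

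In genes of the anterior epiblast and forebrain, r1 stood apart. Of 26 listed genes, 24 were tested, 6 fell and 18 were not called, with a median log2 fold change of -2.01. That median was -3.69 without r1, -0.57 without r2, -0.98 without r3 and -0.69 with at least 10 counts in every sample. The median log2 ratio was 0.77 in r1 and -4.00 and -3.05 in r2 and r3, while the summed level went from 258, 265 and 255 TPM to 164, 65.6 and 56.7 TPM and so was lower at 36 h in r1 as well. *HESX1*, a homeobox repressor of the anterior neural plate, fell in each, from 787, 554 and 671 to 62.0, 27.9 and 35.3 normalized counts. *NPTX1*, a neuronal pentraxin, had 1129.6, 3204 and 2142 at t0 and 19.8, 12.8 and 3.36 at 36 h. Other members, singled out after their values were seen, were not called by edgeR with all 3 differentiations. *PAX6*, a factor of eye and neural tube, had 46.1, 101 and 22.7 at t0 and 284, 2.33 and 3.36 at 36 h, and *LHX5* had 40.0, 151 and 68.8 and then 151, 5.82 and 5.88. Both were at or above the highest t0 sample in r1 and below every t0 sample in r2 and r3. *OTX2*, which specifies forebrain and midbrain, had 3272, 3329 and 3333 at t0 and 905, 57.0 and 40.3 at 36 h, with a log2 fold change of -4.67, negative in all 3 differentiations, and an edgeR adjusted p of 0.053. It was called lower by DESeq2, by limma-voom, with TMM factors over all 47 samples, with no count filter, without r1 and without r3.

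Of 10 definitive endoderm markers, 7 were tested and none was called by edgeR, with a median of 0.30 (-0.31 without r2) and summed levels of 22.0, 24.5 and 18.8 TPM at t0 and 25.2, 33.4 and 146 TPM at 36 h. DESeq2 and limma-voom each called 1 of them higher, and at an unadjusted p under 0.05 edgeR had 1 higher and 2 lower. The most abundant was *CXCR4*, which nascent mesoderm also expresses, at 74.8, 114 and 54.0 normalized counts at t0 and 115, 373 and 4430.3 at 36 h, so that r3 stood apart. *GATA6*, which did not pass the filter for testing, had 2 counts over the t0 samples and 1.24, 916 and 3219 normalized counts at 36 h. Of 10 neural crest markers, 8 were tested and 2 fell (*FOXD3* and *ETS1*, the latter a call lost without r1), with a median of -0.37, or 0.23 with no count filter. Of 12 trophoblast and amnion markers, 5 were tested and *KRT7* fell, with a median of -2.68, or -1.36 with no count filter. Of 10 endothelial and blood markers, 6 were tested and none was called by edgeR, DESeq2 or limma-voom, while 1 higher and 2 lower had an unadjusted p under 0.05 by edgeR, with a median of -0.63, or 0.19 with at least 10 counts in every sample. Of 10 neuronal markers, 7 were tested and *STMN2* rose, with a median of -0.22, or 0.29 with no count filter.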

How the data were processed

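RNA was sequenced from polyA libraries, and the authors deposited, per sample, RSEM gene tables with expected counts and TPM. The submitters' processing notes name cutadapt 1.16, STAR 2.5.2b, RSEM 1.3.0 and GRCh38, and further settings, strand included, are not given in the sources used here. Deposited expected counts (9.23% to 10.17% of them not whole) were rounded. The deposited TPM served only for summed levels and for levels between genes. Identifiers were matched to GENCODE 29 symbols (57447 of 58051 genes).

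Counts of the 6 samples were normalized with TMM, filtered with filterByExpr and fitted with edgeR 4.0.16 (quasi-likelihood, R 4.3.3) with the replicate number as a block, which left 2 residual degrees of freedom. The series design text says that each experiment passed through all time points. The pairing was checked: deviations from the group mean correlated across genes at -0.13, 0.08 and 0.04 within r1, r2 and r3 (mean -0.007, beside 0.002 between different numbers). No replicate pair was within sampling noise: mean squared differences were 37.0 to 178 times the counting variance. Log2 ratios within a differentiation used normalized counts plus 0.5, and distances used plus 2. Groups with 0 counts were set to a floor of 3 counts over the 3 samples of the group.

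Named were the 12 largest changes per direction among called genes, members of 33 lists, the 5 widest and 5 narrowest ranges of log2 ratios, and lost genes by the 10 highest t0 means. Members and lists were chosen with earlier results of these data known. Some genes that this rule names are not reported here. Promoter sequences came from RefSeq (GRCh38.p14), in which 12058 of 18246 tested symbols matched. Alternatives were DESeq2 1.42.0, limma 3.58.1 (voom), other size factors and filters, no block, other thresholds, a fit over all 35 whole-culture samples, and leaving out each replicate. The later passages and sorted samples were otherwise not used here.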

Additional observations from a re-analysis of the deposited data

How the results depend on the processing

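All 18261 genes tested had a median log2 fold change of -0.00, and it stayed between -0.02 and 0.01 under the normalizations, filters and tools tried. Normalization places most genes near 0, so this median is a reference level and no test. Without the replicate block 464 genes rose and 752 fell, of which 386 and 664 were among the 393 and 685 reported. DESeq2 called 523 and 1004, limma-voom 469 and 766, and TMM factors over all 47 samples 392 and 765. A fit over all 35 whole-culture samples called 410 and 554, of which 320 and 462 were among those reported. An adjusted p under 0.01 gave 79 higher and 89 lower, and no minimum fold change gave 643 higher and 1000 lower, by construction of these thresholds. Leaving out 1 replicate gave 11 to 421 genes higher and 2 to 768 lower. The lowest counts were without r2, which left 1 residual degree of freedom, as did leaving out r1 or r3, and the cause was not tested. Over the genes called with all 3, leaving out r1, r2 or r3 shifted the log2 fold change by a median of 0.19, 0.16 and 0.21 for those that rose and of 0.20, 0.12 and 0.20 for those that fell. At an adjusted p under 0.01 the shares of called genes whose log2 ratio, without its sign, was smallest in r1, r2 and r3 were 53.6%, 24.4% and 22.0%. Of the 181 genes named with a call or chosen after their values were seen, 143 lost their call without r2, 24 without r1, 15 without r3 and 4 (among them *FEZF1*, *EPCAM* and *SLC7A11*) without the replicate block. The sign changed for *PAX6* (-1.50 as reported) to 0.76 without the replicate block and, with 1 replicate left out, ranged from -3.99 to 0.41, for *CNTN2* (-2.57) to 0.06 without the replicate block, and for *GDF3* (-0.00) to 1.12 without the replicate block, 0.61 with limma-voom, 0.01 with DESeq2 size factors and a range of -1.48 to 1.40 with 1 replicate left out, and the cause was not tested. Requiring at least 10 counts in every sample, which removes members near 0 at t0, shifted the medians of 5 of the 33 lists by more than the SD of their 3 medians within differentiations: NMP markers from 8.25 to -0.13 (4 of 12 members left, 2 positive and 2 negative), caudal epiblast and NMP from 5.42 to 2.56 (13 of 23 left), primitive streak from 3.95 to 2.57 (9 of 20), WNT ligands from 1.10 to 2.89 (5 of 11), and endothelial and blood markers from -0.63 to 0.19 (3 of 6). By less than that SD it shifted the anterior epiblast and forebrain from -2.01 to -0.69 and FGF ligands from 0.23 to 0.91, and turned the sign for definitive endoderm (0.30 to -0.28), neural crest (-0.37 to 0.07) and neuronal markers (-0.22 to 0.12). With no count filter 3 lists shifted by more than that SD: primitive streak to 4.67, trophoblast and amnion from -2.68 to -1.36, and neural crest from -0.37 to 0.23. By less than it, neuronal markers went to 0.29 and definitive endoderm to 0.88. With 1 replicate left out, the sign of the median turned for FGF ligands (-0.20 without r1), retinoic acid genes (-0.08 without r1), cholesterol and fatty acid synthesis (0.06 without r1), ephrins and EPH receptors (-0.03 without r1 and -0.06 without r3), Notch pathway (-0.04 without r3) and definitive endoderm (-0.31 without r2).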

Other observations

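Genes expressed in nascent and paraxial mesoderm, chosen after their values were seen, were high in r3 but were not called by edgeR with the replicate block. *WNT5A*, a non-canonical WNT ligand, had 296, 387 and 319.8 normalized counts at t0 and 337, 2713 and 16080.5 at 36 h in r1, r2 and r3. *DLL1*, a Notch ligand of the presomitic mesoderm, had 98.4, 104 and 89.9 and then 405, 1409.9 and 10061, and *DLL3* had 138, 249 and 216 and then 243, 2593 and 11235. *PDGFRA*, a receptor of mesodermal cells, had 119, 110.3 and 74.3 and then 114, 444 and 5453. For *ALDH1A2*, which makes retinoic acid, r3 alone stood apart, at 1963 beside 23.6 and 30.2 in r1 and r2 and 8.60 to 13.4 at t0. In r1, *WNT5A* and *PDGFRA* lay within the range of the t0 samples. *DLL1* and *DLL3* were called higher by DESeq2, by limma-voom, without the block, with no count filter, without r1 and without r3, and *WNT5A* by limma-voom.

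Over the genes averaging at least 100 normalized counts, 75 were at least 2-fold higher in 1 differentiation and at least 2-fold lower in another, and the highest ratio was in r1 for 41, in r2 for 8 and in r3 for 26. Examples, also chosen after their values were seen, were *IGFBP5*, a binding protein of insulin-like growth factors, with log2 ratios of 1.46, -5.34 and -2.86 in r1, r2 and r3, and *CNTN2*, an axonal adhesion protein, with 1.57, -4.43 and -4.28. *GDF3*, a TGF-beta family ligand of pluripotent cells, gave 2.18, 0.58 and -4.02, and *GREB1L* gave 2.30, -2.18 and 3.93. *CYP1B1*, a cytochrome P450 chosen in the same way, lay outside these 75 genes. It had 135, 168 and 171 normalized counts at t0 and 1355, 3363 and 113 at 36 h. Thus r3 alone lay below the t0 samples, and it was less than 2-fold below its own t0 sample. *IGFBP5* and *CNTN2* were called lower without r1, and *CYP1B1* higher without r3.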
